A study of Mus musculus with 83 samples.

Results

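The circadian clock genes described here are 10 genes of the molecular day clock, *Arntl*, *Clock*, *Per1*, *Per2*, *Per3*, *Cry1*, *Cry2*, *Nr1d1*, *Dbp* and *Tef*, found by their symbols among the 37764 genes of a colon RNA-seq count table. All 10 were present and all 10 were among the 18325 genes with enough counts to be tested. Colon RNA was sequenced from 83 male C57BL/6J/Ukj mice that were kept only to age, in groups of 16 mice (3 months old), 16 (9 months), 16 (15 months), 17 (24 months) and 18 (28 months), with no treatment or allele named for any group. The libraries were prepared in 3 batches, each with mice of every age. The hour at which each colon was taken and the feeding state of the mouse at that time are not given in the sources used here, although food was not restricted, so a level below is a single reading of a rhythm at an unknown time of day. The values are from whole pieces of bulk tissue, in which fewer cells of a type and less RNA per cell cannot be told apart.

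The mammalian clock is a loop of transcription factors that runs with a period of about a day in most tissues, the gut included. BMAL1, the product of *Arntl*, pairs with CLOCK or its relative NPAS2 and switches on *Per*, *Cry*, *Nr1d1*, *Dbp* and *Tef* through E-box sequences, and the PER and CRY proteins then block the pair. REV-ERBα, the product of *Nr1d1*, represses *Arntl* and other genes through the elements it shares with the ROR receptors, and DBP and TEF activate genes with D-boxes, which NFIL3 represses. Because these genes peak at different hours, *Arntl* is usually high when *Dbp* and *Nr1d1* are low, and in the gut the hour of feeding also sets the phase.

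The 10 genes are placed here on GRCm38 as annotated in GENCODE M21. The activators are *Arntl* (ENSMUSG00000055116, chr7:113207465-113314126, plus strand) and *Clock* (ENSMUSG00000029238, chr5:76209868-76304792, minus strand). The *Per* genes are *Per1* (ENSMUSG00000020893, chr11:69095217-69109960, plus), *Per2* (ENSMUSG00000055866, chr1:91415982-91459324, minus) and *Per3* (ENSMUSG00000028957, chr4:151003652-151044665, minus), and the cryptochromes are *Cry1* (ENSMUSG00000020038, chr10:85131700-85185064, minus) and *Cry2* (ENSMUSG00000068742, chr2:92403646-92434043, minus). *Nr1d1* (ENSMUSG00000020889, chr11:98767932-98775333, minus), *Dbp* (ENSMUSG00000059824, chr7:45705088-45710203, plus) and *Tef* (ENSMUSG00000022389, chr15:81802421-81826863, plus) complete the set, so that *Arntl* and *Dbp* share chromosome 7 and *Per1* and *Nr1d1* chromosome 11.

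The binding letters of this loop can be read in the promoters of the same genes. RefSeq promoter windows (GRCm38.p6, 250 bases before to 50 after a transcription start) were found for 9 of the 10 genes, 14 windows in all, and none was found for *Per2*. Both strands were searched for the E-box CACGTG, the variant E-box CACGTT, the D-box TTANGTAA, the ROR/REV-ERB element TNGGTCA and the CRE TGACGTCA, and 9 of the 14 windows, in 7 genes, held at least 1 match, as did 24.4% of all promoter windows. Of all 32851 promoter windows of this length, 7.15% held the E-box, 4.68% the variant E-box, 2.32% the D-box, 11% the ROR/REV-ERB element and 1.79% the CRE. The stretches shown were chosen because they hold the letters that the factors in this gene set are known to read. They are written 5′ to 3′ on the strand of the gene, the capitals mark the matches, and a lower strand match appears as its reverse complement.
*Arntl*, 2 ROR/REV-ERB elements, chr7:113207245-113207310, plus strand: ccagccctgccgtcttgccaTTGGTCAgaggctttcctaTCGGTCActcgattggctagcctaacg
*Cry1*, a variant E-box and an E-box, chr10:85185089-85185153, minus strand: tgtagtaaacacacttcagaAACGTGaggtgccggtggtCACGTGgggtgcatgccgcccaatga
*Per1*, an E-box, chr11:69098763-69098808, plus strand: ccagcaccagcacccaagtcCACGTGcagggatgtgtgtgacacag
*Per3*, 2 D-boxes and a ROR/REV-ERB element, chr4:151044757-151044890, minus strand: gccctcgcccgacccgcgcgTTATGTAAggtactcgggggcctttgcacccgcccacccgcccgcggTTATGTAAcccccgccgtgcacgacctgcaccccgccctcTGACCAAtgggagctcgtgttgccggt
*Cry2*, a variant E-box and a ROR/REV-ERB element, chr2:92434176-92434255, minus strand: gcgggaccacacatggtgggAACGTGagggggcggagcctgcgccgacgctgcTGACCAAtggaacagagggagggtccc
*Nr1d1*, a variant E-box, chr11:98775380-98775425, minus strand: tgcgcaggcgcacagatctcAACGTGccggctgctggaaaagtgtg
*Tef*, an E-box, chr15:81802526-81802571, plus strand: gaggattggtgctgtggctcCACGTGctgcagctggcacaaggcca

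Of the 9 genes with a window, *Per3* was the one with D-boxes, 205 and 158 bases before its start, and *Tef* had an E-box in both of its windows. The stretch of *Arntl* is from its first window. Its second window, not shown, held the same ROR/REV-ERB elements and a further one after the start, at chr7:113207541-113207547. The windows of *Clock* and *Dbp* held none of these letters, which says nothing about sites elsewhere in those genes. A match is a description of the sequence, and no binding was measured here.

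The libraries held between 23026370 and 75838290 counted read pairs, with a median of 35495123, and the lowest count of any clock gene in any mouse was 67, for *Dbp*. Transcripts that mark colon epithelium were plain in the oldest mice, with the summed level of *Cdx2*, *Cdx1* and *Vil1* between 1207 and 1593 CPM (counts scaled to a common library total) at 28 months. Reads of *Per3* that fall where *Camta1* overlaps it on the same strand, and reads of *Clock* where *Ube2n-ps1* and *Gm43658* do, may have been assigned otherwise or left out. No other clock gene overlapped a gene on its own strand.

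Per length of transcript, *Nr1d1* and *Cry1* had the highest mean levels of the 10 at 3 months and *Per3* the lowest. *Nr1d1* stood at 37.7 ± 23.3 TPM (length-scaled transcript share, SD, n = 16), *Cry1* at 34.2 ± 6.94 TPM and *Clock* at 23.03 ± 2.02 TPM. Below them came *Arntl* at 20.2 ± 1.79, *Per1* at 15.6 ± 5.24, *Cry2* at 14.4 ± 2.56 and *Per2* at 13.1 ± 7.28 TPM. The end of the order was formed by *Tef* at 8.17 ± 2.70, *Dbp* at 6.29 ± 3.57 and *Per3* at 3.24 ± 0.700 TPM. The gap in mean TPM between neighbours exceeded the larger SD for *Cry1* over *Clock*, in this order in 15 of 16 mice, and *Clock* over *Arntl*, in 16 of 16. For the other neighbours it did not, although within mice *Dbp* was above *Per3* in 16 of 16 and *Tef* above *Dbp* in 14 of 16, while *Nr1d1* was above *Cry1* in 5 of 16. At 28 months *Nr1d1* stood at 89.4 ± 46.4 TPM (n = 18), above *Tef* at 30.4 ± 19.7 TPM in 18 of 18 mice, and *Clock* at 22.3 ± 2.30 TPM was above *Arntl* at 13.9 ± 6.44 TPM in 16 of 18. These were the neighbours whose gap exceeded the larger SD. *Tef*, *Dbp* (28.2 ± 23.9), *Per1*, *Cry1*, *Cry2* and *Clock* were not set apart by it, and *Dbp* was above *Per1* in 7 of 18 mice.

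Levels of 9 of the 10 clock genes differed over the 5 ages, where 54.9% of all tested genes did (quasi-likelihood test in edgeR, with terms for age and library batch, Benjamini-Hochberg adjusted p below 0.1). *Clock* was the gene that did not pass (adjusted p = 0.649). Most of this difference was between the oldest mice and all others. When the 65 mice of 3 to 24 months were tested alone, an alternative chosen after seeing the data, 3 of the 10 differed over age, *Per1* (adjusted p = 0.0158), *Per2* (adjusted p = 0.0181) and *Cry2* (adjusted p = 0.00363), where 33.9% of genes did.

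**Figure D1:**
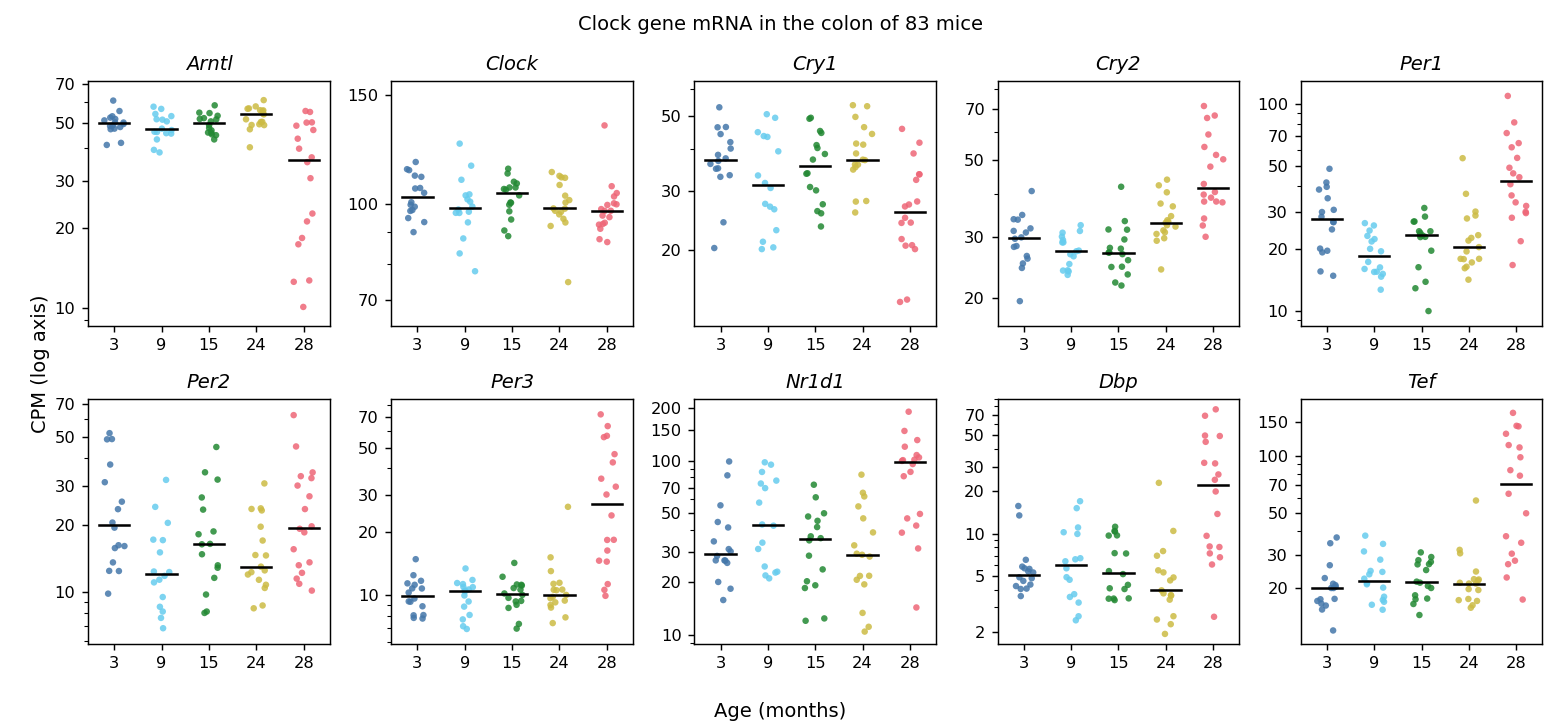
Level of each clock gene in CPM (log axis) in every mouse, by age in months, with 1 point per mouse and a black line at the median of each age. At 28 months *Arntl* reached down to 10.1 CPM and *Dbp* up to 76.4 CPM, while other mice of that age stood among the younger ones, and the medians of *Clock* lay between 97.5 and 104.4 CPM.

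From 24 to 28 months, 6 of the 10 clock genes rose and 2 fell. The background was 11.7% of all genes called in this comparison, 5.66% higher and 6.01% lower at 28 months. The median absolute change of the 10 was 0.81 on the log2 scale, beside 0.07 over all tested genes. Neither the hour of collection nor the feeding state is given for any age. A difference in either cannot be told apart from one of age, here or in the other comparisons of ages. The changes in log2 fold below are from one fit of all 83 mice, with their standard errors, and are described by the place of each gene in the loop. With the level of *Arntl* in each mouse as a covariate, 0 of the other 9 genes passed from 24 to 28 months, with *Dbp*, *Tef* and *Per3* among those that no longer did (*Per3* at 0.42, adjusted p = 0.195). *Arntl* is a member of the same set and itself fell between these ages, so its level and age overlap in this fit. Whether *Arntl* accounts for the other changes was not tested.

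Of the activators, *Arntl* fell and *Clock* did not pass the test. *Arntl* ranged from 40.3 to 60.7 CPM with a median of 53.7 at 24 months, and from 10.1 to 55.3 CPM with a median of 36.2 at 28 months. Of the 18 oldest mice, 10 lay below the lowest of all 65 younger mice, at 38.6 CPM, and the other 8 lay within their range. The change in *Arntl* was -0.63 ± 0.12 (adjusted p = 4.26e-04). *Clock* had a median of 98.4 CPM at 24 months and 97.5 CPM at 28 months, with a change of -0.01 ± 0.04 (adjusted p = 0.929).

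The D-box activators *Dbp* and *Tef*, which BMAL1 drives directly, both rose. *Dbp* went from a median of 3.97 CPM (1.95 to 22.98) at 24 months to 22.1 CPM (2.58 to 76.4) at 28 months, a change of 2.17 ± 0.32 (adjusted p = 4.43e-06). *Tef* went from a median of 21.2 CPM (15.8 to 58.0) to 70.7 CPM (17.5 to 167.9), a change of 1.66 ± 0.20 (adjusted p = 1.75e-08). For *Dbp*, 9 of the 18 oldest mice were above every younger mouse, and for *Tef*, 10 were. These were the same animals as those with low *Arntl*, since all 10 mice above the younger range for *Tef* and all 9 for *Dbp* were among the 10 below it for *Arntl*.

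*Nr1d1*, the repressor of *Arntl*, rose by 1.32 ± 0.27 (adjusted p = 8.38e-04). Its median was 28.8 CPM (10.4 to 83.0) at 24 months and 97.6 CPM (14.3 to 191.0) at 28 months, and 9 of the 18 oldest mice were above all 65 younger ones. The spread of *Nr1d1* between mice was wide at every age, from 4.65-fold between the lowest and highest mouse at 9 months to 13.4-fold at 28 months.

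Of the *Per* genes, which encode the inhibitors of the loop together with *Cry*, *Per3* and *Per1* rose and *Per2* did not pass the test. *Per3* went from a median of 10.04 CPM (7.38 to 26.3) to 27.0 CPM (9.94 to 72.2), a change of 1.46 ± 0.17 (adjusted p = 1.75e-08). *Per1* went from 20.3 CPM (14.2 to 54.6) to 42.6 CPM (16.7 to 109.1), a change of 0.99 ± 0.17 (adjusted p = 1.11e-04). *Per3* was above the younger range in 9 of the 18 oldest mice and *Per1* in 6. *Per2* had a median of 12.97 CPM (8.41 to 30.8) at 24 months and 19.5 CPM (10.1 to 62.6) at 28 months, a change of 0.59 ± 0.24 (adjusted p = 0.110), and 1 of the oldest mice lay above the younger range. *Per2* passed with DESeq2 (adjusted p = 0.0894), without the batch term (adjusted p = 0.0933) and without the single 24-month mouse described below (adjusted p = 0.0837).

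The 2 cryptochromes went in opposite directions. *Cry2* rose from a median of 33.0 CPM (24.2 to 43.9) to 41.6 CPM (30.1 to 71.5), a change of 0.45 ± 0.09 (adjusted p = 4.20e-04), with 8 of the 18 oldest mice above the younger range. *Cry1* fell from 37.1 CPM (25.8 to 53.8) to 25.9 CPM (13.99 to 45.8), a change of -0.51 ± 0.13 (adjusted p = 0.00781). The ages overlapped more for *Cry1*, with 3 of the 18 oldest mice below all younger ones, and without library batch 1 the change did not pass (-0.41, adjusted p = 0.168).

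**Figure D2:**
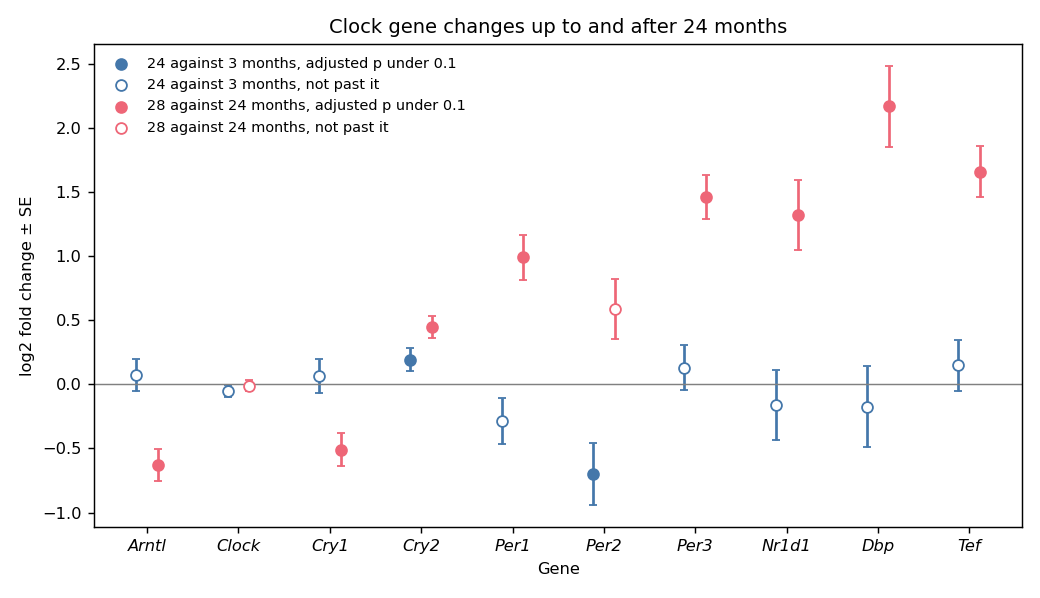
Log2 fold change (vertical axis, bars are standard errors) of each clock gene between 3 and 24 months in blue and between 24 and 28 months in red, with filled points for adjusted p below 0.1 and open points for the rest. Of the first comparison 2 genes are filled, *Cry2* at 0.19 and *Per2* at -0.70, and of the second 8 genes, from *Cry1* at -0.51 and *Arntl* at -0.63 up to *Dbp* at 2.17.

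Against the youngest mice the same genes were called. At 28 against 3 months 6 rose and 2 fell, in a comparison that called 49.4% of all genes, 23.5% higher and 25.9% lower at 28 months. *Dbp* changed by 1.99 ± 0.32, *Tef* by 1.80 ± 0.21, *Per3* by 1.59 ± 0.18, *Nr1d1* by 1.16 ± 0.28, *Per1* by 0.70 ± 0.18, *Cry2* by 0.64 ± 0.09, *Cry1* by -0.44 ± 0.13 and *Arntl* by -0.56 ± 0.12, with adjusted p from 0.00400 for *Cry1* to 1.05e-11 for *Per3*. The change of *Arntl* was -0.34 without library batch 1, -0.66 without batch 2 and -0.65 without batch 3, and it passed each time. *Per2* was at -0.11 ± 0.24 (adjusted p = 0.737), since the 3-month mice had the highest mean *Per2* of the 5 ages, 25.2 ± 14.2 CPM (SD, n = 16), beside 24.1 ± 13.9 CPM (n = 18) at 28 months. From 9 to 28 months 9 of the 10 were called where 40% of genes were, and from 15 to 28 months 8 where 42.4% were. Cell type markers also moved between 3 and 28 months, among them 4 of 4 goblet cell and 2 of 3 B cell markers that were lower and 3 of 4 macrophage and 3 of 3 endothelial markers that were higher. Of *Cdx2*, *Cdx1* and *Vil1*, 2 were lower, and of 3 fibroblast markers 1 was higher and 1 lower. In the clock gene changes, the part of markers other than those of B cells and smooth muscle was not tested. All 4 of these comparisons share the 28-month mice and are not independent of each other.

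Few clock genes were called between ages below 28 months. From 3 to 9 months *Per1* fell by 0.60 on the log2 scale (SE 0.18, adjusted p = 0.0380), from a mean of 28.8 ± 9.89 to 19.1 ± 4.38 CPM (SD, n = 16 each). *Per2* fell by 0.87 (SE 0.25, adjusted p = 0.0248), from 25.2 ± 14.2 to 14.1 ± 6.79 CPM, and both ages overlapped for both genes. These were the 2 calls among the 10 in a comparison that called 8.69% of genes, and with library batch 3 left out neither was called. From 9 to 15 months no clock gene was called by edgeR or by DESeq2, and 0 had an unadjusted p below 0.05, where 0.431% of genes were called.

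From 15 to 24 months *Cry2* was the single call, with a rise of 0.28 ± 0.09 (adjusted p = 0.0401) from 27.9 ± 4.99 (n = 16) to 33.9 ± 4.98 CPM (n = 17), where 13.5% of genes were called, and it was lost when any of the 3 batches was left out. *Cry2* was also called from 9 to 24 months at 0.31 ± 0.09 (adjusted p = 0.0173), where 15.5% of genes were. From 3 to 24 months *Per2* at -0.70 ± 0.24 (adjusted p = 0.0230) and *Cry2* at 0.19 ± 0.09 (adjusted p = 0.0997) passed, against 34.5% of genes. Cell type markers were called there too, among them 3 of 3 endothelial, 3 of 4 macrophage and 3 of 5 smooth muscle markers. From 15 to 24 months the endothelial *Pecam1*, *Cdh5* and *Kdr* and the macrophage *Csf1r*, *C1qa* and *Cd68* were among the markers that rose. The part of endothelial and macrophage markers in the clock gene changes was not tested. From 3 to 15 months no clock gene passed by edgeR or DESeq2 and 1 had an unadjusted p below 0.05, where 7.75% of genes passed.

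The rises and falls at 28 months had the same sign within each of the 3 library batches for the 8 called genes. *Dbp* was higher at 28 than at 24 months by 2.19 in batch 1 (7 mice of 28 months, 5 of 24), by 1.21 in batch 2 (5 and 6) and by 2.17 in batch 3 (6 and 6), as differences of mean log2 CPM. For *Arntl* these differences were -1.23, -0.53 and -0.53. A single 24-month mouse, replicate 5, stood apart from its age group in the direction of the oldest mice. It had 22.98 CPM of *Dbp*, 58.0 of *Tef*, 26.3 of *Per3* and 54.6 of *Per1*, the highest of the 65 younger mice for each of these 4 genes, and 40.3 CPM of *Arntl*, the lowest at 24 months. Without it, an alternative chosen after seeing the data, 9 of the 10 clock genes were called from 24 to 28 months.

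Some markers of cell types also moved from 24 to 28 months. All 3 B cell markers (*Ms4a1*, *Cd79a*, *Cd79b*) were lower, with a summed level of 7.89 to 47.5 CPM at 24 months and 5.85 to 22.9 CPM at 28 months. Of the 4 goblet cell markers, *Clca1* and *Fcgbp* were lower and *Muc2* and *Tff3* did not pass, with sums of 23060 to 37140 CPM and 20110 to 30250 CPM. No marker of colonocytes, smooth muscle, macrophages, endothelium, T cells, enteric neurons, glia or adipocytes was called in this comparison, and 1 of 3 fibroblast markers was lower. When the mean levels of the B cell and smooth muscle markers were added to the edgeR fit, 8 clock genes were called from 24 to 28 months, with *Arntl* at -0.60 (adjusted p = 0.00150), *Per3* at 1.37 (adjusted p = 7.30e-07) and *Dbp* at 2.02 (adjusted p = 4.32e-05). The part of the goblet cell and fibroblast markers in the clock gene changes was not tested.

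The spread between mice widened at 28 months for part of the set. After age and batch means were removed, the SD of *Arntl* in log2 CPM was 0.14 over the 65 mice of 3 to 24 months and 0.74 over the 18 mice of 28 months, a ratio of 5.13. The ratio was 2.77 for *Per3*, 2.45 for *Tef*, 1.67 for *Dbp* and 1.64 for *Cry2*, and near 1 for *Nr1d1* (1.07), *Per2* (1.11) and *Clock* (1.15), beside a median of 1.01 over all tested genes. *Nr1d1*, *Dbp* and *Per2* were already variable before 28 months, with SDs of 0.82, 0.76 and 0.68, exceeded by 1.80%, 2.03% and 2.91% of all genes. *Arntl* was not, since 66.4% of genes had a larger SD at those ages. No test of the spread was run.

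Many pairs of clock genes were correlated from mouse to mouse within an age, some positively and some negatively. Pearson's r was computed for each of the 45 pairs on log2 CPM after age and batch means were removed, with two-sided permutation tests of 100000 resamples within age and batch, adjusted over the 45 pairs. Over all 83 mice 32 of the 45 pairs passed, with a median absolute r of 0.45, and *Clock* passed with 1 of its 9 partners, *Per2* (r = 0.31). The 28-month mice weigh heavily in these values, because they held 85.0% of the remaining sum of squares of *Arntl*, 68.0% of that of *Per3* and 62.3% of that of *Tef*. The mice of 3 to 24 months and those of 28 months are therefore given side by side, a division chosen after seeing the data.

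In the 65 mice of 3 to 24 months 30 of the 45 pairs passed, 19 with a positive r and 11 with a negative one, and the median absolute r was 0.33. *Arntl* and *Cry1* rose and fell together (r = 0.80, Spearman's rho = 0.77) and both ran against *Dbp* and *Nr1d1*. *Arntl* had r = -0.81 with *Dbp* (rho = -0.78) and r = -0.80 with *Nr1d1* (rho = -0.79), and *Cry1* had r = -0.82 with *Nr1d1* (rho = -0.81). *Dbp* and *Tef*, 2 factors of the same family, had r = 0.87 (rho = 0.82). Each of these had a permutation p of 1e-05 for both r and rho, which is the smallest that 100000 resamples can give (adjusted p = 3.21e-05 for r), and without the 2 mice farthest from the median of the first gene r remained between 0.76 and 0.83 in size. This opposition of *Arntl* to *Dbp* was present at each single age, with r of -0.75, -0.83, -0.75, -0.82 and -0.93 at 3, 9, 15, 24 and 28 months, and in each library batch, with r of -0.80, -0.79 and -0.79.

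**Figure D3:**
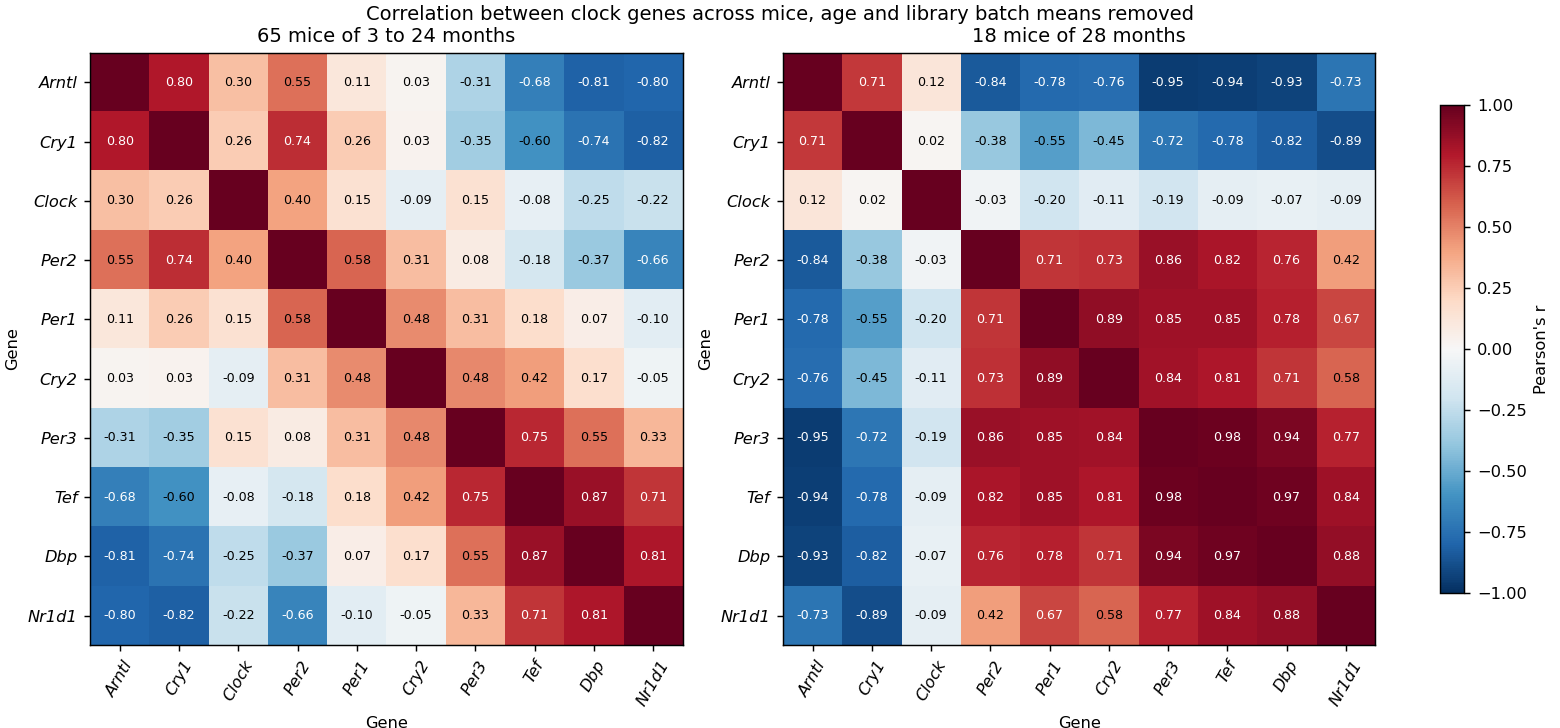
Pearson's r between each pair of clock genes across mice, after removal of age and batch means, for the 65 mice of 3 to 24 months on the left and the 18 mice of 28 months on the right, from blue (-1) to red (1). *Arntl* and *Cry1* are positive with each other and negative with *Dbp*, *Tef* and *Nr1d1* in both, whereas *Per2* is positive with *Arntl* on the left (0.55) and negative on the right (-0.84).

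In the 18 mice of 28 months 34 of the 45 pairs passed and the median absolute r was 0.76. Against all other tested genes, the median absolute r of a clock gene was 0.12 (*Dbp*) to 0.19 (*Per2*) at 3 to 24 months. At 28 months this was also larger, 0.23 (*Per2*) to 0.33 (*Clock*). *Tef* and *Per3* had r = 0.98 (rho = 0.98), and *Arntl* had r = -0.95 with *Per3* (rho = -0.98), -0.94 with *Tef* (rho = -0.98) and -0.93 with *Dbp* (rho = -0.96), each with a permutation p of 1e-05, again the smallest possible (adjusted p = 5.00e-05). Without the 2 mice farthest from the median these were 0.98, -0.94, -0.92 and -0.90. The oldest mice ran from high *Arntl* with low *Dbp*, *Tef* and *Per3*, as in younger animals, to low *Arntl* with these genes high. The level of *Arntl* between the ends was graded, with mice at 30.9, 35.5, 37.0 and 39.9 CPM between those of 10.1 to 22.7 and those of 43.5 to 55.3 CPM. No pair with *Clock* passed the threshold at 28 months, and the absolute r of *Clock* with any of the other 9 was at most 0.20.

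**Figure D4:**
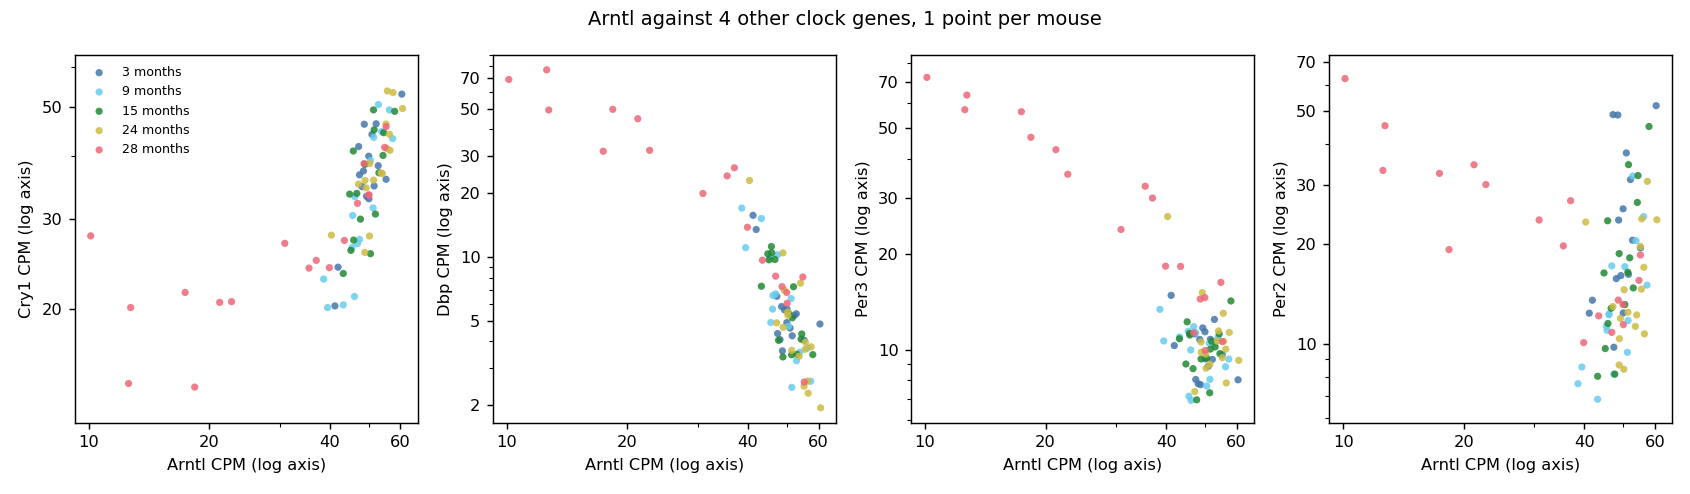
*Arntl* (horizontal, CPM, log axis) against *Cry1*, *Dbp*, *Per3* and *Per2* (vertical, CPM, log axes), 1 point per mouse coloured by age in months. The 28-month mice extend the falling relation with *Dbp* down to 10.1 CPM of *Arntl*, and *Per2* rises with *Arntl* in the younger mice but is highest, at 62.6 CPM, in the old mouse with the least *Arntl*.

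The pair of *Arntl* and *Per2* had opposite signs in the younger and oldest mice. In the 65 mice of 3 to 24 months r was 0.55 (permutation p = 1e-05, the smallest possible, adjusted p = 3.21e-05, rho = 0.58 with p = 1e-05), and 0.62 without the 2 mice farthest from the *Arntl* median. At 28 months r was -0.84 (permutation p = 0.00011, adjusted p = 3.09e-04, rho = -0.81 with p = 0.00041), and -0.83 without the 2 mice. By single age r was 0.46, 0.72, 0.71 and 0.51 at 3, 9, 15 and 24 months. Pooled over all 83 mice r was -0.25 (permutation p = 0.0485, adjusted p = 0.0704, rho = -0.01 with p = 0.924), and within the 3 library batches it was -0.42, -0.11 and 0.02. Between the younger and the oldest mice 14 of the 45 pairs had opposite signs, *Per2* with *Cry1* (0.74 and -0.38) and *Per2* with *Nr1d1* (-0.66 and 0.42) among them. Of the 24 pairs past the threshold in both sets of mice, 3 had opposite signs, the others being *Per2* with *Dbp* (-0.37 and 0.76) and *Per1* with *Cry1* (0.26 and -0.55). The difference between the ages was not tested for any of them.

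*Per1* was positively correlated with *Per2* and *Cry2* in the younger mice as a whole. Over 65 mice *Per1* had r = 0.58 with *Per2* (permutation p = 3e-05, adjusted p = 9.00e-05, rho = 0.58 with p = 1e-05) and 0.48 with *Cry2* (p = 0.00022, adjusted p = 5.82e-04, rho = 0.47 with p = 0.00024), and r = 0.11 with *Arntl* (p = 0.389, adjusted p = 0.473, rho = 0.21 with p = 0.0929). Without the 2 mice farthest from the *Per1* median the first 2 were 0.57 and 0.44. The pair of *Per2* and *Cry2* was weaker, with r = 0.31 (permutation p = 0.0220, adjusted p = 0.0395, rho = 0.21 with p = 0.124, and 0.22 without 2 mice), and at 9 months alone *Cry2* ran against both, with r of -0.33 with *Per1* and -0.66 with *Per2*. *Cry2* had r = 0.48 with *Per3* over the 65 mice (permutation p = 0.00024, adjusted p = 6.00e-04, rho = 0.51 with p = 6e-05, and 0.52 without 2 mice). *Arntl* and *Per3* had r = -0.31 at these ages (permutation p = 0.0340, adjusted p = 0.0589, rho = -0.17 with p = 0.186), and -0.11 without the 2 mice farthest from the *Arntl* median. By single age r of this pair was -0.40, -0.38, 0.09 and -0.43 at 3, 9, 15 and 24 months. At 28 months *Per1* had r = 0.89 with *Cry2* (permutation p = 2e-05, adjusted p = 8.18e-05, rho = 0.81 with p = 0.00033, and 0.84 without 2 mice) and -0.78 with *Arntl* (p = 0.00013, adjusted p = 3.44e-04, rho = -0.84 with p = 5e-05, and -0.70 without 2 mice).

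The number of close partners within the set differed between the clock genes. Over the 65 younger mice *Arntl*, *Cry1*, *Nr1d1*, *Dbp* and *Tef* each had an absolute r of at least 0.5 with 5 of the other 9, *Per2* with 4, *Per3* with 2, *Per1* with 1, and *Clock* and *Cry2* with 0. Of all other tested genes, the share at that size was 0.284% for *Tef*, 0.289% for *Dbp*, 1.21% for *Arntl*, 2.82% for *Nr1d1* and 3.93% for *Cry1*, and it was 8.55% for *Per2*. For *Cry2*, *Per3*, *Per1* and *Clock* it was 0.453%, 1.14%, 1.31% and 8.54%. At 28 months *Clock* again had 0 such partners, where 29.7% of all genes reached that size with it, and the others had 6 to 8 of 9, where 10.2% (*Per2*) to 20.8% (*Cry2*) of all genes did.

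Several measures other than the clock moved with *Arntl* within the 28-month mice. Their part in the correlations was not tested. At this age the mean log2 CPM of 4 macrophage markers had r = 0.67 with *Arntl* and -0.82 with *Cry2*, that of 3 endothelial markers 0.68 and -0.74, that of 3 fibroblast markers 0.65 and -0.75, and that of 3 B cell markers 0.42 and -0.45. Enteric neuron markers had 0.44 and -0.70, smooth muscle markers 0.37 and -0.61, T cell markers 0.29 and -0.53, and goblet cell markers 0.43 and -0.40, the last also with -0.74 for *Nr1d1*. The goblet cell markers ranged from -0.21 (*Muc2*) to 0.45 (*Clca1*) with *Arntl*. Colonocyte markers went different ways, with r from -0.53 (*Slc26a3*) to 0.54 (*Aqp8*) with *Arntl*, as did enteric glia markers, from -0.39 (*Sox10*) to 0.47 (*S100b*). The library total had r = 0.39 with *Arntl* and -0.53 with *Dbp*. In the 65 younger mice r with *Arntl* was 0.18 for macrophage, 0.33 for endothelial, 0.29 for fibroblast and -0.10 for B cell markers, and -0.03 for the library total. The mean of 6 immediate early genes had larger values there, 0.43 with *Arntl*, 0.47 with *Cry1*, 0.50 with *Per2* and -0.45 with *Nr1d1*, and its part was not tested. These are descriptions over 18 and 65 mice of values from the same libraries.

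The genes whose pattern over all 83 mice was most like that of *Arntl*, by Pearson's r after age and batch among the genes with a mean of at least 1 CPM, were *Npas2* (0.81), *Nfil3* (0.81), *St5* (0.77), *Tmem252* (0.75) and *Ier5* (0.74). The most opposed were *Tef* (-0.83), *Per3* (-0.80), *Dbp* (-0.78), *Ciart* (-0.76) and *Anxa7* (-0.73). Over the 65 younger mice *Cry1* led (0.80), followed by *Pcdh12* (0.71), and *Dbp* (-0.81), *Nr1d1* (-0.80) and *Nr1d2* (-0.74) were the most opposed. The genes most like *Per1* over 83 mice were *Usp2* (0.68), *Cry2* (0.66), *Rab11fip4* (0.66), *Tfcp2l1* (0.64) and *Mef2d* (0.63), and the most opposed were *Nox1* (-0.61), *Ncapg* (-0.59), *Kptn* (-0.58), *Abo* (-0.57) and *Slitrk6* (-0.55).

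Of 8 further genes of the loop, 7 were tested, 6 differed over age and, from 24 to 28 months, 3 rose and 1 fell. Over all tested genes 54.9% differed over age, 5.66% rose and 6.01% fell. *Nr1d2*, which encodes REV-ERBβ, rose by 1.19 ± 0.19 (adjusted p = 1.78e-05), with 11 of the 18 oldest mice above all younger ones. *Ciart*, a repressor of the CLOCK and BMAL1 pair, rose by 2.44 ± 0.30 (adjusted p = 1.78e-08), from a median of 0.653 to 3.59 CPM. *Bhlhe40*, an E-box repressor, rose by 0.22 ± 0.08 (adjusted p = 0.0863). *Npas2*, the partner of BMAL1 in place of CLOCK, fell by 0.35 on the log2 scale (SE 0.08, adjusted p = 0.00180). *Arntl2*, *Rora* and *Bhlhe41* were not called from 24 to 28 months, and *Rorb* was not tested. The median change of the 7 was 0.12, beside -0.01 over all genes.

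**Figure D5:**
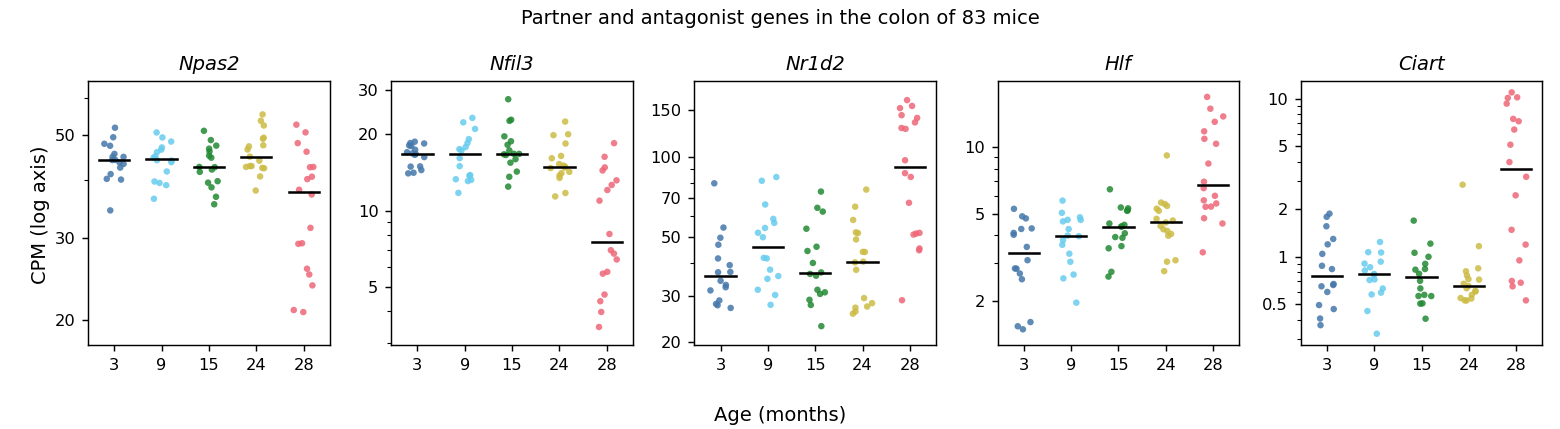
Level of *Npas2*, *Nfil3*, *Nr1d2*, *Hlf* and *Ciart* in CPM (log axis) in every mouse by age in months, with 1 point per mouse and a black line at the median. *Npas2* and *Nfil3* extend downwards at 28 months, *Nfil3* to 3.47 CPM, and *Nr1d2*, *Hlf* and *Ciart* extend upwards, *Ciart* to 10.96 CPM.

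At the D-box, the activator and the repressor went opposite ways. *Hlf*, the relative of *Dbp* and *Tef*, rose by 0.82 ± 0.16 (adjusted p = 3.54e-04), from a median of 4.56 CPM (2.74 to 9.17) at 24 months to 6.74 CPM (3.34 to 16.9) at 28 months. *Nfil3* fell by 0.73 on the log2 scale (SE 0.14, adjusted p = 3.67e-04), from 14.9 CPM (11.4 to 22.5) to 7.53 CPM (3.47 to 18.5), and 11 of the 18 oldest mice lay below all 65 younger ones. *Hlf* had also risen before that age, by 0.49 ± 0.16 from 3 to 24 months (adjusted p = 0.0195).

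Of the kinases, ubiquitin ligases and other regulators of clock proteins 11 were tested. Of these 8 differed over age (54.9% of all genes did) and 1 of 11 was called from 24 to 28 months (11.7% of all genes were). This was *Usp2*, which encodes a deubiquitinase and rose by 0.51 ± 0.14 (adjusted p = 0.0129). Of 8 genes listed as clock outputs, 7 differed over age, against the same 54.9%, and 2 were called from 24 to 28 months, against 11.7%, where *Tsc22d3* rose by 0.20 ± 0.08 (adjusted p = 0.0916) and *Lonrf3* fell by 0.32 on the log2 scale (SE 0.09, adjusted p = 0.0261). *Wee1*, *Nampt* and *Por* were not called in this comparison, and *Noct*, known for its daily rhythm in many tissues, had fallen from 15 to 24 months by 0.29 (SE 0.08, adjusted p = 0.0169).

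Glucocorticoids, the adrenal hormones that follow the day and rise with stress, are known to induce *Per1* and *Per2* directly. Of 5 other glucocorticoid-induced genes, 3 rose from 24 to 28 months, where 5.66% of all genes rose, *Zbtb16* by 0.54 ± 0.20 (adjusted p = 0.0749), *Fkbp5* by 0.29 ± 0.11 (adjusted p = 0.0988) and *Tsc22d3*, which is also in the list of outputs, while *Sgk1* (0.12 ± 0.14, adjusted p = 0.668) and *Klf9* (0.13 ± 0.05, adjusted p = 0.120) did not pass. From 3 to 24 months 2 of the 5 were called, where 34.5% of all genes were. These were *Fkbp5* at -0.49 ± 0.11 (adjusted p = 8.28e-04) and *Sgk1* at -0.40 ± 0.14 (adjusted p = 0.0271). At 28 against 3 months *Fkbp5* did not pass (-0.20 ± 0.11, adjusted p = 0.148). In that comparison 3 of the 5 were higher and 1 lower, against 23.5% and 25.9% of all genes. The mean log2 CPM of the 5 genes had r = 0.65 with *Per1* and 0.53 with *Per2* over the 65 younger mice, and 0.04 with *Arntl*, where the single genes ranged from -0.28 (*Klf9*) to 0.57 (*Sgk1*). At 28 months it had 0.58 with *Per1*, 0.59 with *Per2*, 0.53 with *Tef*, 0.46 with *Dbp* and -0.41 with *Arntl*, the last with single genes from -0.64 (*Fkbp5*) to 0.37 (*Sgk1*). No hormone was measured, and a part of glucocorticoids in the levels of the clock genes was not tested. Of 6 immediate early genes, *Junb* rose by 0.21 ± 0.06 (adjusted p = 0.0335) and the other 5 were not called, so that 1 of 6 was called where 11.7% of all genes were.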

How the data were processed

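Colon RNA was polyA-selected and sequenced with the TruSeq Stranded mRNA kit, and the authors deposited raw counts of read pairs per gene, made with cutadapt 2.8, HISAT2 2.1.0 (GRCm38), SAMtools 1.9 and strand-aware featureCounts (Subread 2.0.1), keeping uniquely mapped reads. From these counts, genes passing filterByExpr by age were scaled by TMM and fitted with age and library batch in edgeR 4.0.16 (R 4.3.3, quasi-likelihood F test), calling an adjusted p below 0.1. Log2 CPM used a prior count of 2, and TPM used merged exon lengths of GENCODE M21, which held 37612 of the 37764 genes. DESeq2 1.42.0 was an alternative. Totals of 23026370 to 75838290 read pairs set the counting error. No 2 libraries of an age agreed within sampling noise. Each mouse is a separate animal by its label. The members and gene lists were chosen with earlier results of these data known. Genes that are no member were named as the 5 most and least like *Arntl* and *Per1*, or from the lists. Replicate numbers did not pair the mice, since the mean correlation of same-numbered mice was 0.0021 over 161 pairs. The code was tested on simulated data. Some genes of the lists are not reported here and were left out of the list counts, sums and scores.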

Additional observations from a re-analysis of the deposited data

How the results depend on the processing

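Over the alternatives run, 78 counts of called clock genes stayed within 1.5 times their value and 9 did not. Of the values of single genes, 357 kept their direction and side of the threshold, 22 no longer passed it, 3 newly passed it and 5 changed sign. With *Arntl* as a covariate, 5 of the other 9 genes were called over all ages, 3 between 3 and 28 months and 0 between 24 and 28 months by edgeR, a fit in which *Arntl* itself differs with age. Without the 28-month mice (chosen after seeing the data) 3 were called over all ages. From 3 to 9 months 1 was called without library batch 1 and 0 without batch 3, and from 15 to 24 months 0 without any of the 3 batches. *Clock* between 24 and 28 months turned to 0.011 with the covariate, 0.038 without batch 2, 0.0062 without batch 3 and 4.07e-05 without replicate 5 of 24 months (chosen after seeing the data). *Per2* between 3 and 28 months turned to 0.10 without batch 3. The median absolute r, 0.45, was 0.60 with age and batch means kept, 0.32 within batch 3, 0.76 within 28 months and 0.33 without the 28-month mice. The r of *Arntl* turned to -0.11 with *Clock* at 15 months, to 0.12, 0.24 and 0.49 with *Per1* at 3, 9 and 15 months and 0.11 without 28 months, to 0.088 with *Per3* at 15 months, and to 0.026 and 0.56 with *Cry2* at 3 and 15 months and 0.031 without 28 months. With *Per2* it was 0.019 in batch 3, 0.46, 0.72, 0.71 and 0.51 at 3 to 24 months and 0.55 without 28 months. The cause of these changes was not tested. A replicate block changed no count, with 9 called over all ages and 8 from 24 to 28 months.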
